A study of Mus musculus with 10 samples.

Results

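The genes described here encode the proteins of the cytosolic ribosome. They were chosen by symbol alone, as every protein-coding gene whose mouse symbol is Rpl or Rps with a number and at most 1 closing letter a, x or l, or is Rplp0, Rplp1, Rplp2 or Rpsa. The rule found 80 genes among the 38922 measured, of which 49 belong to the large subunit, the 3 P-stalk genes included, and 31 to the small subunit. Ribosomal proteins with other symbols (Fau, Rack1 and Rps3a1 among them) were left out by the rule and are given beside the results. RNA came from whole livers of wildtype male C57BL/6N mice aged 6 weeks, collected 6 h after an intraperitoneal injection, with 5 mice in each group. The CD95-Ab group received 0.5 µg/g body weight of an antibody that activates the death receptor CD95 (Fas) and so causes acute liver injury, and the saline group received an equal volume of saline. No transgene or deletion was carried by either group. Whole tissue was used, so fewer cells of a type and less RNA per cell cannot be told apart.

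The cytosolic ribosome joins ribosomal RNA with about as many proteins as there are genes of this set, each present in 1 copy per ribosome except for the stalk proteins. The messenger RNAs of these proteins carry a run of pyrimidines at their very start, the TOP tract, through which growth signals acting on mTOR set how strongly they are translated. In the liver they are among the abundant messages of every hepatocyte. Because they are short and abundant, they have given rise to many processed pseudogenes, copies of the spliced message inserted elsewhere in the genome, and reads from a gene and from a near-identical copy cannot be told apart.

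Start sites of some genes to which the results refer are shown first. Each line gives 15 bases before and 15 bases from the annotated first transcribed base in RefSeq (GRCm38), and capitals mark the tract, a C at that first base and every C or T that follows without a break.
Rplp2 (chr7:141447636-141447665, plus strand): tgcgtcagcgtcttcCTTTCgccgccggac
Rps27 (chr3:90213634-90213663, minus strand): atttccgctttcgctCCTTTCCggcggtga
Rps6 (chr4:86857353-86857382, minus strand): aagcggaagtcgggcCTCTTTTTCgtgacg
Rpl15 (chr14:18270972-18271001, minus strand): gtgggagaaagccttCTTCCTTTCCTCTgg
Rpl28 (chr7:4792950-4792979, plus strand): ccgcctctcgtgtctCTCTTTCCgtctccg
Rps18 (chr17:33955651-33955680, minus strand): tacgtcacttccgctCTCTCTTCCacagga
Rpl12 (chr2:32961697-32961726, plus strand): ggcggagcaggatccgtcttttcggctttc
The last line has no capitals, since its annotated first base is a G, although a run of pyrimidines lies a little downstream. Start windows were held by the table for 60 of the 80 genes, 72 windows in all. A C followed by 4 bases that are each C or T stood exactly at the annotated start in 13 of these windows (18.1%), against 2.51% of all 32851 windows. An annotated start that is off by a few bases hides the tract in this count, and the other strand was not searched because the tract is read on the transcript.

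The next pairs of stretches from the coding sequence show why the copies matter, and capitals mark the bases at which the members of a pair differ. Each stretch is 30 bases from GENCODE release 21 (GRCm38), and each pair names the gene and then its copy with the most counts.
Rpl12 (chr2:32961803-32961832, plus strand): atgccgcccaagttcgaccccaacgaggtc
Gm10275 (chr10:29699261-29699290, minus strand): atgccgcccaagttcgaccccaacgaggtc
Rpl10a (chr17:28328811-28328840, plus strand): cagcaaagtctcacgcgacaccctgtacga
Rpl10a-ps1 (chr1:64994570-64994599, minus strand): cagcaaagtctcacgcgacaccctgtacga
Rps12 (chr10:23786851-23786880, minus strand): catagctgctggaggtgtaatggacgtcaa
Rps12-ps3 (chr19:59322385-59322414, plus strand): catagctgctggaggtgtaatggacgtcaa
Rps27 (chr3:90213272-90213301, minus strand): ctcgcaaaggatctccttcatccctctcca
Rps27rt (chr9:114982672-114982701, minus strand): ctcgcaaaggatctccttcatccctctcca
Rps23 (chr13:90924360-90924389, plus strand): aggaagtgCgtcagggtgcaGCtcattaag
Gm9701 (chr3:62924006-62924035, minus strand): aggaagtgTgtcagggtgcaATtcattaag
The first 4 pairs are 100% identical over every base aligned, from 341 bases for Rps27 to 654 bases for Rpl10a. The Rps23 pair differs at 3 of the 30 bases shown and is 96.97% identical over 429 bases. A read that falls within such a stretch of the first 4 families has no base that assigns it to the gene or to the copy.

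Total counts per mouse ran from 25965699 to 62097636, and 3 counts at the lowest total correspond to 0.116 CPM (counts scaled to a total of 1000000, here with TMM factors between mice). Libraries of the same group differed by far more than sampling noise in each of 20 pairs, so no library was counted as a repeat of another. The labelled tissue was borne out by hepatocyte markers, whose 10 genes summed to between 109000 and 137000 CPM in saline mice and to between 55900 and 93200 CPM in CD95-Ab mice, with 4 of the 10 lower and 0 higher. In the lists of other cells every marker called was higher, and the part of these cells in the results below was not tested. Over all genes tested, 25.4% were called as higher and 22% as lower. The 7 erythroid markers, globins among them, summed to 135 to 325 CPM after saline and 1060 to 34000 CPM after CD95-Ab (7 of 7 higher), and the 8 neutrophil markers to 4.19 to 10.6 and 102 to 410 CPM (5 of 5 tested higher). Macrophage markers gave 3 of 10 higher, near the share of all genes, and their sums overlapped (172 to 576 and 348 to 747 CPM). Lymphocyte markers gave 8 of 11 higher, endothelial markers 7 of 8, stellate cell markers 4 of 7 and cholangiocyte markers 4 of 5. Each of these lists, that of macrophages included, had 0 lower and no marker at 0 in every mouse. A list of 8 RNAs that lack a poly(A) tail, Rn7sk among them, summed to 0.338 to 0.923 CPM after saline and 357 to 1310 CPM after CD95-Ab. After CD95-Ab this sum was nearly all Rn7sk, with a mean of 742 CPM against 2.92 CPM for the next highest, Rpph1. Of the 8, 4 were tested and all 4 were higher. Terc overlapped between the groups, and Rny1 and Rny3 had 0 counts in every mouse. The sources describe a single preparation for every mouse, but the sum of this list separated the groups without overlap. A difference in library preparation and the effect of the antibody therefore cannot be told apart in any value below.

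The summed level of the ribosomal protein genes was alike in the groups as a share of all counts, and it overlapped between them on each scale used. Their counts made up 1.08%, 1.18%, 0.968%, 0.994% and 1.08% of all counts in the 5 saline mice, a mean of 1.06% ± 0.0837 (SD, n = 5). In the CD95-Ab mice the share was 1.17%, 0.994%, 1.07%, 1.23% and 0.898%, a mean of 1.07% ± 0.133 (SD, n = 5). The groups overlapped, and the highest and the lowest share of all 10 mice both belonged to CD95-Ab mice. With the counts of the copies added, the shares were 1.29% ± 0.105 and 1.31% ± 0.162. The large subunit took 0.788% ± 0.0617 and 0.793% ± 0.0942 of all counts, copies included, and the small subunit 0.505% ± 0.0437 and 0.516% ± 0.0668. The ratio of large to small subunit counts stayed between 1.54 and 1.58 in saline mice and between 1.52 and 1.58 in CD95-Ab mice. On the deposited FPKM scale (fragments per kilobase of transcript, relative to the total), the sum over the genes was 15600 ± 1370 after saline and 15800 ± 2140 after CD95-Ab. In TMM-scaled CPM, the scale of the tests below, the means lay further apart, at 10300 ± 1230 and 11100 ± 2160. With copies they were 12600 ± 1540 and 13600 ± 2640 CPM.

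**Figure D1:**
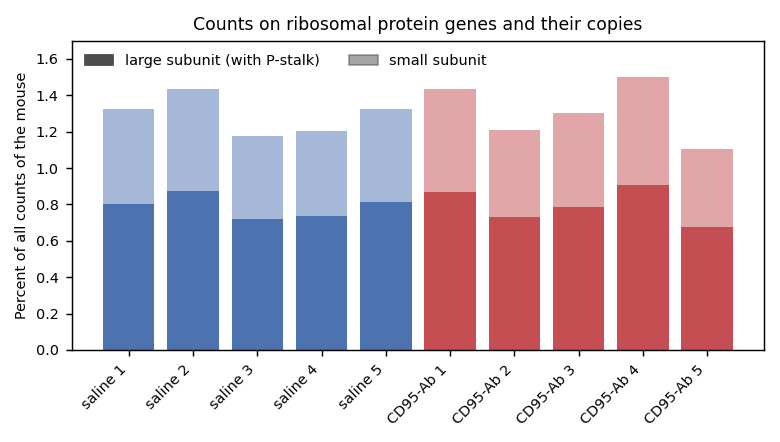
Percent of all counts of each mouse that fell on ribosomal protein genes and their near-identical copies, with the large subunit in the dark lower part and the small subunit in the pale upper part of each bar, saline mice in blue and CD95-Ab mice in red. The totals run from 1.18% to 1.44% in saline mice and from 1.1% to 1.5% in CD95-Ab mice.

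Gene by gene, few ribosomal protein genes passed the test. After a filter on low counts, 76 of the 80 were tested with the quasi-likelihood test of edgeR, and 3 were called at an FDR of 0.05, all 3 higher in CD95-Ab mice. Over all 13719 genes tested, 47.3% were called, 25.4% as higher. The 3 were Rplp2, Rpl12 and Rpl10a. At an unadjusted p under 0.05 there were 7, and no gene of the set was called with a log2 fold change of 2 or more either way, against 7.7% of all genes tested. DESeq2 called 5 as higher, adding Rpl9 and Rps9, and 0 as lower, and limma on FPKM called 4 as higher and 1 as lower, Rps12, past a log2 fold change of 2. Without CD95-Ab mouse 5 the count was 7, without saline mouse 5 it was 6, and without CD95-Ab mouse 4 it was 2.

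The changes lay close to each other. The median log2 fold change over the 76 was 0.13, with 64 above and 12 below 0, and the middle 50% of them ran from 0.04 to 0.20. Over all genes tested the median was 0.01 and the middle 50% ran from -0.42 to 0.57. For the 46 large subunit genes tested the median was 0.12, and for the 30 small subunit genes it was 0.14. The sign of the set's median rested on CD95-Ab mouse 4, without which it was -0.04. The 95% interval of the change stayed within 1.5-fold either way for 52 of the 76 genes (68.4%) and within 2-fold for 72 (94.7%), as it did for 22.7% and 53.7% of all genes tested. The median width of these intervals was 0.75 on the log2 scale for the ribosomal protein genes and 0.86 for all genes.

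**Figure D2:**
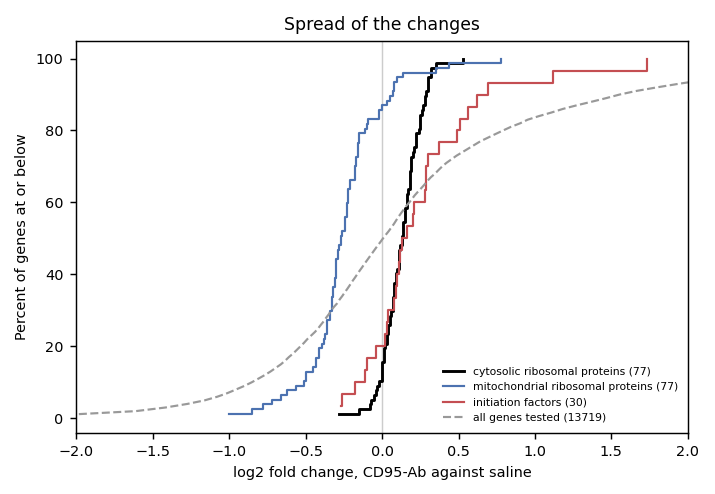
Cumulative percent of genes (vertical axis) at or below a log2 fold change of CD95-Ab against saline (horizontal axis, from -2 to 2), for cytosolic ribosomal protein genes with copies summed, mitochondrial ribosomal protein genes, initiation factors and all genes tested, the last 3 as deposited. The black line is the steepest, with its middle 50% between 0.04 and 0.21, and the line of the mitochondrial genes lies to its left.

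Counts on the copies changed which genes were called. A search of transcripts by sequence found 721 copies of 73 of the 80 genes, 174 of them with 0 counts in every mouse. The copies held 18.1% of the counts of these families. Most genes kept their counts, since 58 held at least 95% of the counts of their family, whereas 13 held under 25%, and in each of the 13 a copy with 1000 counts or more was 100% identical over the bases aligned. The genes with the smallest shares were Rps27 (0%), Rps6 (2.62%), Rpl31 (4.68%), Rpl12 (6.22%), Rpl27 (7.03%), Rpl5 (7.73%), Rps13 (9.12%) and Rps12 (9.64%). When the counts of each gene were summed with those of its copies, a choice made after seeing the data, 77 genes were tested and 1 was called, Rplp2, against 47.4% of all genes tested in that fit. DESeq2 on the same summed counts called 3 (Rpl9, Rplp2 and Rps9), and leaving out each mouse gave 0 to 5, with 5 (Rpl41, Rpl9, Rplp2, Rps19 and Rps9) without CD95-Ab mouse 5, 2 (Rpl34 and Rplp2) without saline mouse 5, and 0 without saline mouse 1 or 3 or CD95-Ab mouse 3 or 4. The unadjusted p was under 0.05 for 4 genes, and the median log2 fold change was 0.13, with 67 above and 10 below 0. The 95% interval then lay within 2-fold either way for 77 of the 77 genes, and within 1.5-fold for 59.

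**Figure D3:**
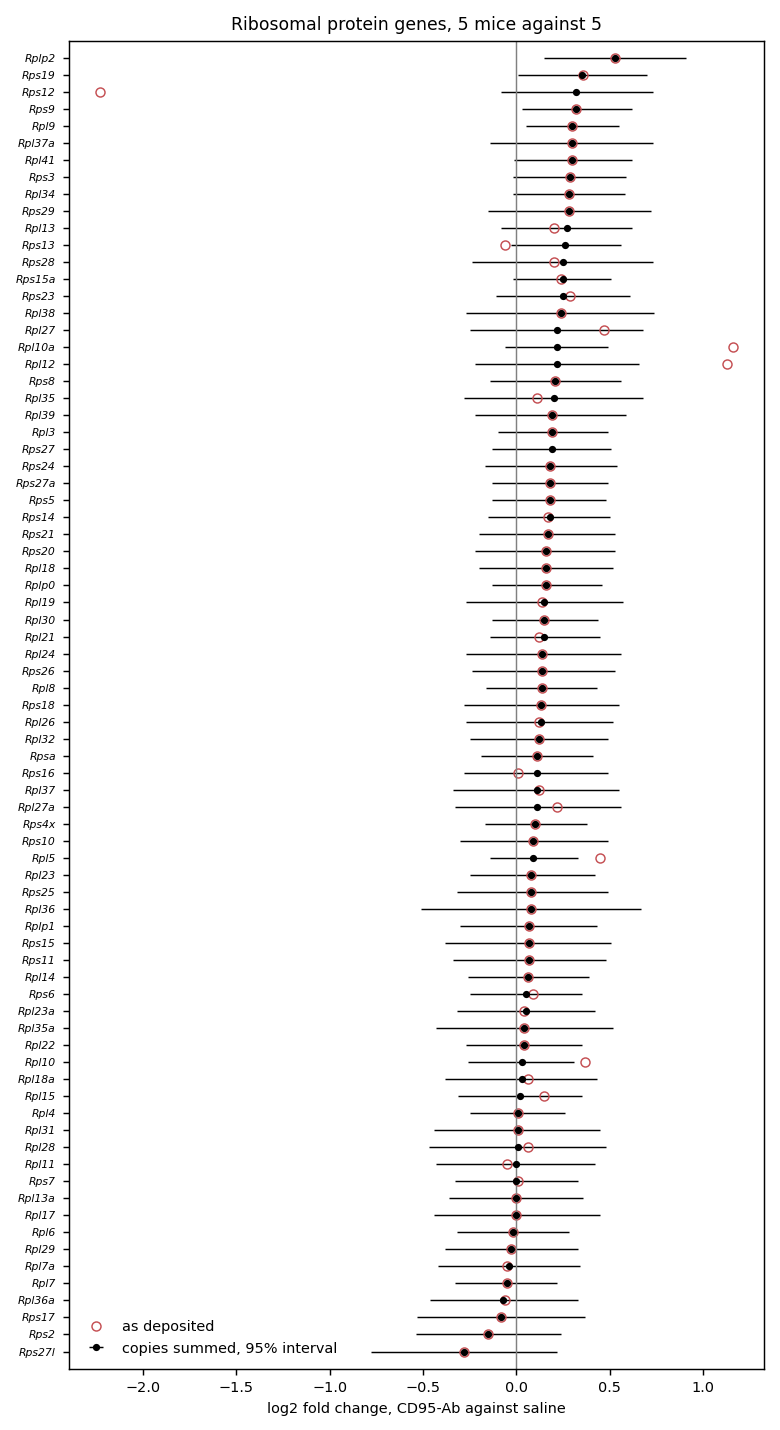
Log2 fold change of CD95-Ab against saline (horizontal axis) for the 77 ribosomal protein genes tested with copies summed, black points with 95% intervals, and open red circles for the value on the named gene alone where it was tested. Rps12 on the left and Rpl12 and Rpl10a on the right are the circles farthest from their black points, and Rplp2 at the top is the gene called.

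Rpl12 (ENSMUSG00000038900, chr2:32961559-32965345, GRCm38) encodes a large subunit protein at the base of the stalk. On the named gene it had 5.08, 5.72, 5.15, 5.77 and 11.4 CPM in saline mice and 13.4, 14.2, 12.9, 22.4 and 10 CPM in CD95-Ab mice. All CD95-Ab mice except mouse 5 were above the highest saline mouse, and saline mouse 5 stood apart from its group. The log2 fold change was 1.13 (SE 0.27, 95% interval 0.54 to 1.71, edgeR FDR = 0.00459), and it was 1.42 without saline mouse 5. The gene held 6.22% of the counts of its family, while Gm10275, whose sequence is printed above, had 53517 counts over the 10 mice and a log2 fold change of 0.16 (edgeR FDR = 0.542). Gene and copies together gave 151 ± 40 CPM after saline and 176 ± 42.7 CPM after CD95-Ab (SD, n = 5), and their log2 fold change was 0.22 (95% interval -0.22 to 0.66, edgeR FDR = 0.398). The share of the family on the named gene was 3.47% to 5.25% in saline mice and 7.23% to 9.15% in CD95-Ab mice, without overlap.

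Rpl10a (ENSMUSG00000037805, chr17:28328471-28331033), a large subunit protein of the L1 stalk, also had most of its counts on a copy. Its own values were 15.7, 19.2, 14.8, 13.0 and 25.5 CPM after saline and 22.9, 35.5, 38.8, 72.7 and 27.7 CPM after CD95-Ab. CD95-Ab mouse 4 was highest, and CD95-Ab mouse 1 lay below saline mouse 5. The log2 fold change was 1.16 (SE 0.30, 95% interval 0.51 to 1.80, edgeR FDR = 0.00687). Rpl10a-ps1 held most of the family's counts, 43622 over the 10 mice, with a log2 fold change of 0.01 (edgeR FDR = 0.937). The summed family had 143 ± 7.90 CPM after saline and 166 ± 26.2 CPM after CD95-Ab, a log2 fold change of 0.22 (95% interval -0.06 to 0.49, edgeR FDR = 0.181). The share of the Rpl10a family on the named gene was 9.23% to 17.6% in saline mice and 14.5% to 35.2% in CD95-Ab mice, with overlap.

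Rps12 (ENSMUSG00000061983, chr10:23785183-23787275), a small subunit protein, gave the lowest fold change of the set. Its counts were 672, 785, 597, 72 and 3072 in saline mice and 652, 0, 1, 95 and 0 in CD95-Ab mice. In CPM the groups overlapped, since CD95-Ab mouse 1 (20.9 CPM) lay above saline mice 1, 3 and 4 (15.8, 16.8 and 2.77 CPM). CD95-Ab mouse 4 (3.83 CPM) also lay above saline mouse 4, which was low. The log2 fold change was -2.23 (SE 1.28, 95% interval -5.01 to 0.56, edgeR FDR = 0.171), and without CD95-Ab mouse 1 it was -4.71 and called (edgeR FDR = 0.0122). Rps12-ps3, with an identical coding stretch, had 5748, 4655, 4029, 3530 and 8407 counts after saline and 4871, 5687, 5436, 6637 and 6649 after CD95-Ab. No mouse lacked counts there, and the log2 fold change of that copy was 0.51 (edgeR FDR = 0.0273). The family summed to 159 ± 32.6 and 199 ± 48.0 CPM, and the log2 fold change turned to 0.32 (95% interval -0.08 to 0.73, edgeR FDR = 0.174).

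Rps27 (chr3:90212522-90213651), a small subunit protein with a zinc finger, had 0 counts in every mouse, and Rps27rt had 33632 counts. Rps27 was therefore left out of the test on the named genes. Summed with its copies it had 90.6 ± 11.5 CPM after saline and 103 ± 19.5 CPM after CD95-Ab, with a log2 fold change of 0.19 (95% interval -0.13 to 0.51, edgeR FDR = 0.310). Rps6, the small subunit protein that S6 kinase phosphorylates, had 2664 counts on the gene and 98826 on its copies, nearly all on Rps6-ps4 (98747). The log2 fold change of the Rps6 family was 0.05 (95% interval -0.25 to 0.35).

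**Figure D4:**
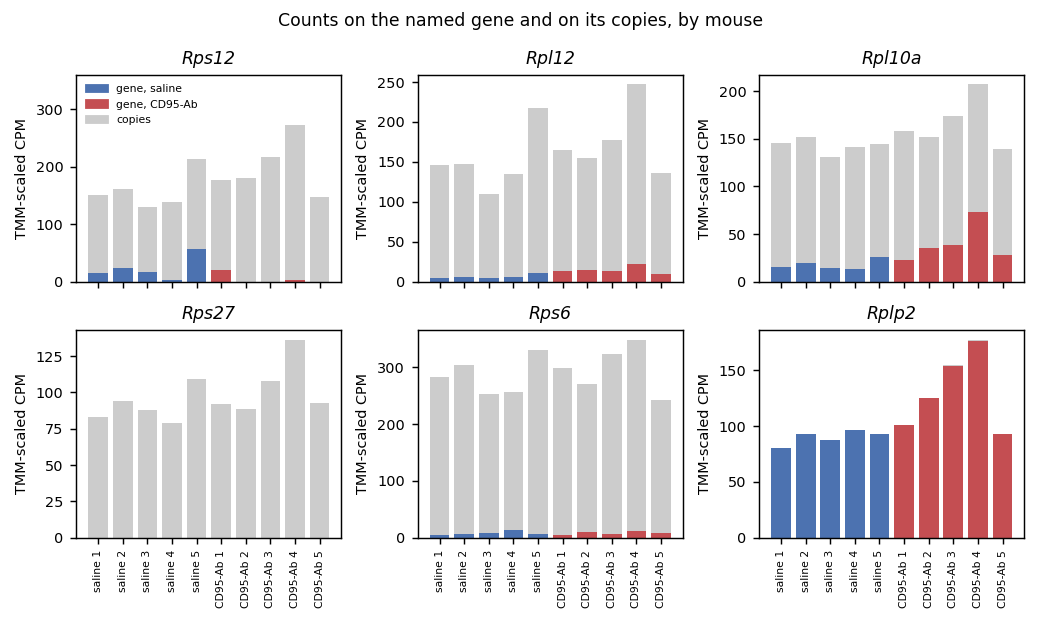
TMM-scaled CPM per mouse on the named gene (blue for saline, red for CD95-Ab) and, stacked in grey, on its copies, for Rps12, Rpl12, Rpl10a, Rps27, Rps6 and Rplp2, each panel with its own axis from 0. Most of each bar is grey except for Rplp2, where 1 count in all fell on the copy.

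The P-stalk is the flexible arm of the large subunit that recruits the GTPases of translation, with Rplp0 as its base and pairs of Rplp1 and Rplp2 as its arms. Rplp2 (ENSMUSG00000025508, chr7:141447370-141451585) rose. It had 80.6, 92.6, 87.4, 96.2 and 93.1 CPM in saline mice and 101, 125, 154, 176 and 92.7 CPM in CD95-Ab mice. The saline mice lay close together, and CD95-Ab mouse 5 fell among them while the other 4 were above all saline mice. Mean CPM was 90 ± 6.13 in saline and 130 ± 35.4 in CD95-Ab mice (SD, n = 5), and the log2 fold change was 0.53 (SE 0.17, 95% interval 0.15 to 0.91, edgeR FDR = 0.0258). The call was lost without saline mouse 1 (log2 fold change 0.49, edgeR FDR = 0.0628), saline mouse 3 (0.51, edgeR FDR = 0.0531), CD95-Ab mouse 3 (0.46, edgeR FDR = 0.0660) or CD95-Ab mouse 4 (0.37, edgeR FDR = 0.0567). The 2 CD95-Ab mice with the highest Rplp2, 3 and 4, were also the 2 with the highest sum of erythroid markers (34000 and 20700 CPM), of cholangiocyte markers (186 and 158 CPM) and of the RNAs without a poly(A) tail (811 and 1310 CPM). Other lists ranked the mice otherwise. The highest 2 CD95-Ab mice were 3 and 5 for neutrophil, endothelial and stellate cell markers. They were 4 and 5 for lymphocyte markers and 2 and 1 for macrophage markers. Mice 3 and 4 also had the lowest TMM factors of the CD95-Ab mice (0.893 and 0.849). With copies summed they lay above the saline mean in 74 and 77 of the 77 ribosomal protein genes. Their high standing was not particular to Rplp2. The part of these traits in the result was not tested.

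Set against the other ribosomal protein genes of the same mouse, Rplp2 also stood higher. Its FPKM was 0.516 to 0.683 of the median of the 56 genes that hold at least 95% of their family's counts in saline mice, and 0.712 to 0.974 of it in CD95-Ab mice, without overlap. This ratio did not overlap between the groups in 4 of the 56 genes, Rplp2 and Rps19 (0.58 to 0.701 and then 0.716 to 0.888), which stood higher, and Rps2 (1.84 to 2.19 and then 1.62 to 1.72) and Rpl29 (0.755 to 0.843 and then 0.692 to 0.753), which stood lower in CD95-Ab mice. No such count was made over all genes for this ratio, while in plain CPM the groups did not overlap in 33.3% of all genes tested. Rplp2 had already been called on these data, so its ratio is a description only. Rps19, Rps2 and Rpl29 were picked out here after their values were seen. Rplp0 had 304, 313, 302, 307 and 244 CPM after saline and 325, 307, 398, 346 and 270 CPM after CD95-Ab. The groups overlapped, and the log2 fold change was 0.16 (95% interval -0.13 to 0.46, edgeR FDR = 0.350). Rplp1 had 265, 278, 247, 278 and 355 CPM and then 262, 254, 318, 406 and 251 CPM, a log2 fold change of 0.07 (95% interval -0.30 to 0.43, edgeR FDR = 0.764), whose sign turned with the scaling of totals (-0.03 with library totals only, -0.01 with upper quartile factors). Whether Rplp2 changed more than Rplp0 or Rplp1 was not tested. Rpsa, a small subunit protein also known as the laminin receptor, had 316 to 406 CPM (median 350) after saline and 314 to 467 CPM (median 370) after CD95-Ab, a log2 fold change of 0.11 (95% interval -0.19 to 0.40, edgeR FDR = 0.550).

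Only in 1 of the 76 genes tested did the CPM of the groups not overlap, against 33.3% of all genes tested. That gene was Rpl9, a large subunit protein, picked out here after its values were seen. It had 148, 152, 150, 148 and 120 CPM after saline and 173, 165, 198, 187 and 159 CPM after CD95-Ab. The log2 fold change was 0.30 (95% interval 0.05 to 0.55, edgeR FDR = 0.0505), just past the threshold, and Rpl9 was called by DESeq2 and when genes needed at least 10 counts in every mouse. Rps9 had a log2 fold change of 0.32 (95% interval 0.03 to 0.61, edgeR FDR = 0.0682), and Rps19, a small subunit protein affected in Diamond-Blackfan anaemia, of 0.36 (95% interval 0.01 to 0.70, edgeR FDR = 0.0847).

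The ribosomal protein genes moved together from mouse to mouse. The mitochondrial ones, given below, also stood highest in saline mouse 5 and CD95-Ab mouse 4, so this was not particular to the cytosolic set. In log2 CPM with copies summed, saline mouse 5 lay above the saline mean in 69 of 77 genes, with a median deviation of 0.33, and saline mice 1, 3 and 4 lay above it in 7, 6 and 12 genes. CD95-Ab mouse 4 was above the saline mean in 77 of 77 genes (median deviation 0.56) and CD95-Ab mouse 3 in 74 (0.23). CD95-Ab mouse 5 was above it in only 9 genes (-0.17), and CD95-Ab mice 1 and 2 in 42 and 33 genes (0.02 and -0.05). The medians ran from -0.16 to 0.33 in saline mice and from -0.17 to 0.56 in CD95-Ab mice, and the groups overlapped. The mice that stood high also had the lowest TMM factors, 0.869 for saline mouse 5, 0.849 for CD95-Ab mouse 4 and 0.893 for CD95-Ab mouse 3. Scaled by library totals alone, the median deviations of these 3 mice were 0.09, 0.28 and 0.02, and saline mouse 2 had the most genes above the saline mean of its group (76 of 77).

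**Figure D5:**
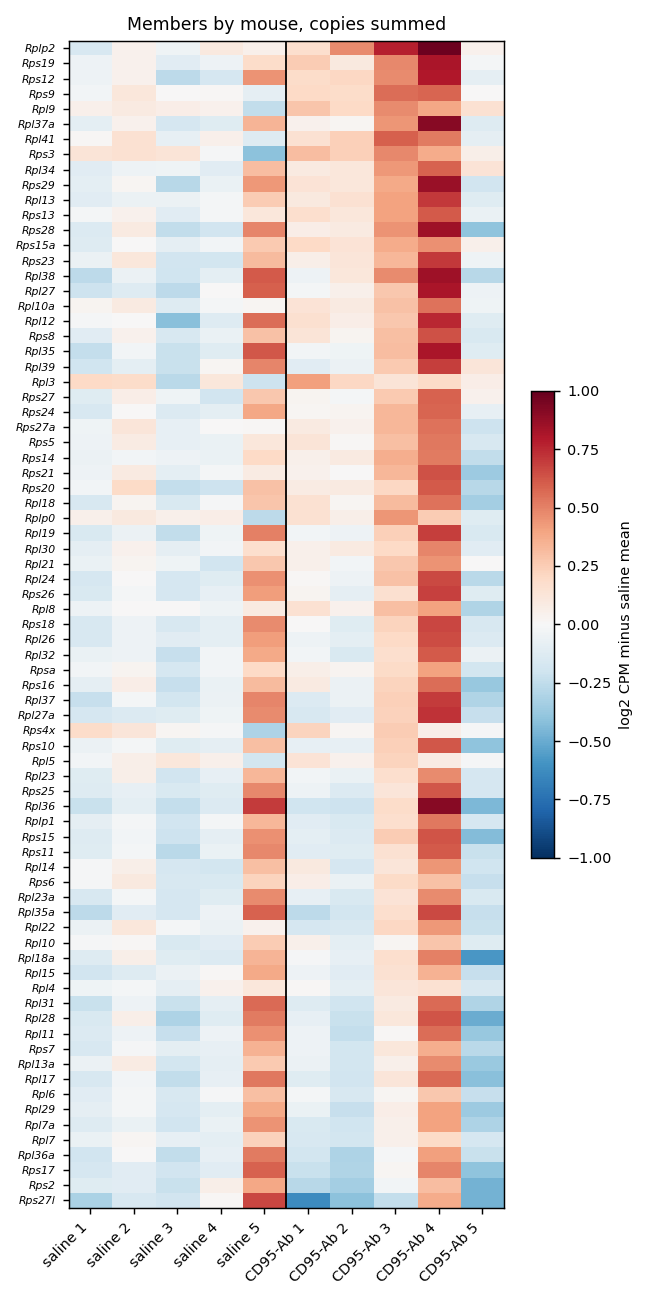
Log2 CPM of each ribosomal protein gene (rows, copies summed, ordered by fold change) in each mouse (columns) minus the mean of that gene over the saline mice, red above and blue below, with colours capped at 1 either way. The columns of saline 5 and CD95-Ab 4 are red in nearly every row, and 8 rows, among them Rps3, Rps4x and Rplp0, are blue in saline 5.

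In saline mouse 5 the 8 genes below the saline mean were Rps3 (-0.41), Rps4x (-0.31), Rplp0 (-0.26), Rpl9 (-0.25), Rpl3 (-0.21), Rpl5 (-0.18), Rpl41 (-0.13) and Rps9 (-0.09). In CD95-Ab mouse 3 the genes below it were Rps27l (-0.24), Rps2 (-0.03) and Rpl36a (-0.01).

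These are short messages, and length moved with the fold change over all genes. The effective length implied by counts and FPKM was 685 bases at the median of the ribosomal protein genes tested, from 312 to 1805, and 74 of the 76 fell in the shortest quintile of all genes tested. The median log2 fold change of that quintile was -0.10, and that of the longest quintile was 0.16. The part of length in the values of the ribosomal protein genes was not tested.

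Per length, the genes that keep their counts lay close to each other in level. Among the 56 genes tested that hold at least 95% of their family's counts, mean FPKM after saline ran from 109 for Rps3 to 667 for Rplp1, a 6.12-fold range, with a median of 236, and 52 lay within 2-fold of that median. Rplp1 was highest, with 667 ± 58.3 FPKM after saline and 652 ± 83.3 after CD95-Ab (SD, n = 5). It was followed by Rps2 (474 ± 41.0 and 402 ± 56.8), a small subunit protein at the entry of the messenger RNA channel, and by Rpl13a (398 ± 68.2 and 364 ± 106). Rpl13a and Rps18, next in order with 397 ± 46.3, did not differ beyond their spread. The lowest of all genes tested were Rpl31 (5.21 ± 0.677 and 5.0 ± 0.71 FPKM), Rpl12 (8.10 ± 2.47 and 18.7 ± 4.85) and Rps6 (9.79 ± 4.07 and 9.85 ± 2.35), each with under 7% of its family's counts on the gene. None of the 13 genes with under 25% of the counts exceeded 78.4 FPKM after saline.

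Paralogs with tissue-restricted use were nearly silent in these livers. Rpl10l, a testis paralog of Rpl10, had 0 counts in every mouse, which allows up to 0.116 CPM in the shallowest library. Rpl3l, the muscle paralog of Rpl3, had 0 to 3 counts per mouse, and Rpl39l, a testis paralog of Rpl39, had 0 to 4. With Rps27, these are the 4 genes that did not pass the filter. Their partners were abundant after saline, with 170 ± 40.3 FPKM for Rpl3, 156 ± 18 for Rpl39 and 78.4 ± 15.8 for Rpl10, which has 15.7% of its family's counts. Rps4l is annotated as a pseudogene, so the rule did not take it, and it had 11.5 ± 3.46 CPM after saline and 13.8 ± 6.94 CPM after CD95-Ab. Rps27l, a paralog of Rps27 that responds to DNA damage through Trp53, had 81.9, 91.1, 89.4, 103 and 162 CPM after saline and 65.9, 76.7, 86.5, 132 and 73.7 CPM after CD95-Ab. The groups overlapped, and the log2 fold change was -0.28 (95% interval -0.78 to 0.22, edgeR FDR = 0.339).

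Genes of the same pathway were counted from lists. Over all genes tested edgeR called 47.3%, with 25.4% higher and 22% lower, DESeq2 called 51% and limma 44.6%. None of 6 ribosomal proteins or ribosome-bound proteins listed from outside the symbol rule was called by edgeR, with log2 fold changes from -0.11 for Fau to 0.31 for Rpl36al, a median of 0.11, an unadjusted p under 0.05 for 0 of them, and 0 called by DESeq2 or limma. Of 14 ribosomal proteins known to bind MDM2, Rpl5 and Rpl11 among them, 13 were tested and 0 were called by edgeR. At an unadjusted p under 0.05 there was 1, and their median was 0.12. DESeq2 called 0 of them and limma 1, Rpl5. That gene held 7.73% of its family's counts, and its log2 fold change was 0.09 with copies summed. Of 20 translation factors and other messages with a TOP tract that were found, 1 rose and 1 fell (10% called), with a median of 0.02. This list and the list from outside the symbol rule were called less often than all genes tested. So was the MDM2 list, which is a part of the set and adds no further genes. Hnrnpa1, an RNA-binding protein, rose from 39.9 ± 3.71 to 68.1 ± 7.01 CPM (log2 fold change 0.77, edgeR FDR = 0.000196). Eif4b, which assists the helicase that opens messages for the ribosome, fell from 183 ± 37.0 to 105 ± 12.5 CPM (log2 fold change -0.80, edgeR FDR = 0.00157).

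Of 30 other initiation factors 9 rose and 1 fell, a share of 33.3% called and a median of 0.15. Over all genes tested 47.3% were called and 25.4% rose, so the share called in this list was below that of all genes and the share that rose, 9 of 30, was near it. Eif6, which holds free large subunits apart from small ones, rose from 30.9 ± 4.05 to 102 ± 31.2 CPM (log2 fold change 1.73, edgeR FDR = 5.71e-05). Eif1a rose from 49.6 ± 8.93 to 108 ± 12.5 CPM (1.12, edgeR FDR = 7.56e-05), and Eif4a1, the helicase itself, from 228 ± 12.2 to 367 ± 34.0 CPM (0.69, edgeR FDR = 0.000457). Of 22 genes of the mTOR pathway and of TOP regulation 0 rose and 5 fell with edgeR, 7 had an unadjusted p under 0.05, and DESeq2 and limma each called 0 as higher and 6 as lower, with a median of -0.18. Over all genes tested 22% fell, and 22.7% of this list did, so the list was at the share of all genes. The 5 were Deptor (log2 fold change -0.96, edgeR FDR = 0.0179), Tsc1 (-0.94, edgeR FDR = 0.000151), Akt1s1 (-0.64, edgeR FDR = 0.00476), Mtor (-0.53, edgeR FDR = 0.00218) and Sesn1 (-0.50, edgeR FDR = 0.0268). Mtor encodes the kinase, and the other 4 encode proteins that restrain it.

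The ribosome of the mitochondrion, built from separate nuclear genes (Mrpl and Mrps), served as the nearest comparison. Of its 77 genes, all tested, 2 rose and 21 fell, a share of 29.9% called against 47.3% of all genes tested, and the median log2 fold change was -0.27. The share that fell with edgeR, 27.3%, was near the 22% of all genes. DESeq2 called 25 as lower (32.5%, against 24.6% of all genes) and limma on FPKM 36 (46.8%, against 23.9%). How far the share called as lower stood from that of all genes therefore depended on the method. The median log2 fold change lay below that of all genes by a similar amount in each. It was -0.27 with edgeR, -0.28 with DESeq2 and -0.35 with limma, against 0.01, -0.01 and -0.07 for all genes. The largest decreases were those of Mrpl49 (18.5 ± 1.32 to 9.20 ± 1.89 CPM, log2 fold change -1.0, edgeR FDR = 0.000144) and Mrps35 (18.8 ± 2.92 to 10.4 ± 2.32 CPM, -0.85, edgeR FDR = 0.00112). The 2 increases were Mrpl18 (0.78, edgeR FDR = 0.0354) and Mrps18b (0.44, edgeR FDR = 0.0404). In 11 of the 77 the fold change was above 0, and 57 of the 77 lay in the shortest quintile of all genes by effective length. The median deviation of the mitochondrial genes from the saline mean was -0.42 to 0.09 in CD95-Ab mice, with mouse 4 again the highest and mouse 5 again the lowest. In saline mice it was -0.15 to 0.24, with mouse 5 again the highest, while the lowest was mouse 1 and not mouse 3. The 2 sets of genes were not compared by a test.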

How the data were processed

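Liver RNA of 10 mice, 5 per group, was sequenced from 500 ng per mouse as pairs of 100 bp. The authors assigned reads with RSEM 1.2.19 and deposited, per gene and mouse, an expected count (whole numbers in these files, not normalized) and an FPKM value (scaled by RSEM for length and total). RSEM shares out reads that match several genes. The methods name a human GENCODE release for this step, whereas the files hold mouse identifiers, and the mouse annotation and genome build are not given in the sources used here. Symbols, biotypes and positions came from GENCODE mouse release 21 (GRCm38), which held 37606 of the 38922 identifiers, and start windows from RefSeq (GRCm38.p6).

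Genes were kept by filterByExpr (minimum count 10), scaled with TMM factors and fitted in edgeR 4.0.16 (R 4.3.3), using its quasi-likelihood test, no covariate and Benjamini-Hochberg adjustment over all 13719 genes tested. Standard errors were derived from the F statistic and 95% intervals from its degrees of freedom. Copies were transcripts of pseudogenes or of other protein-coding genes found with blastn 2.17.0 at 90% identity or more, over at least 50% of the copy and 100 bases. Summing them with the gene was chosen after seeing the data.

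The members, gene lists and tests were chosen with earlier results of these data known. Named genes were the members called, the P-stalk genes and Rpsa, the paralogs, the 3 highest and 3 lowest members by FPKM, those failing the filter, and Rps12. Rpl9, Rps9 and Rps19 were named after their values were seen. The test, run on simulated counts with 200 genes changed by 2 on the log2 scale, found 199 of these, while 10 of 209 calls were false. The simulation used the same spread for every gene and no shift shared by genes within a mouse. Changes as small as those of most ribosomal protein genes were not simulated. DESeq2 1.42.0, limma 3.58.1 on log2(FPKM + 0.1), other filters, scalings and thresholds, a replicate block and leaving out each mouse were alternatives. Summaries used Python 3.11.15 with scipy 1.17.1 and pandas 2.3.3. Intervals given for counts at 0 cover counting error only.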

Additional observations from a re-analysis of the deposited data

Results flagged for a closer look

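In 30 groups of 5 mice, over the summed levels and 8 named genes, a mouse was picked out when its gap to the nearest other mouse exceeded Dixon's critical value of 0.71 of the group's range, which chance does in about 1 group in 20. This happened 5 times. Saline mouse 5 was the mouse in 4 of them. It was lowest for Rplp0, at 244 CPM against 302 CPM for the next mouse. It was highest for Rplp1 (355 CPM, next 278 CPM), for Rpl12 on the named gene (11.4 CPM, next 5.77 CPM) and for Rps27l (162 CPM, next 103 CPM). CD95-Ab mouse 1 was highest for Rps12 on the named gene, at 20.9 CPM against 3.83 CPM for the next mouse. No cause was tested.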

How the results depend on the processing

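The count of 3 genes called as higher became 5 with DESeq2 and 1 when copies were summed. With copies summed it was 3 with DESeq2 and 1 with RLE factors, upper quartile factors, library totals only or the replicate block. Leaving out each mouse, with and without copies summed, gave 0 to 7 genes called as higher, 7 without CD95-Ab mouse 5 and 6 without saline mouse 5. It gave 0 to 1 called as lower and 0 to 1 past a log2 fold change of 2. The 1 gene called as lower and past 2 was Rps12, without CD95-Ab mouse 1 (-4.71) and with limma on FPKM (1 gene, -5.34). The median log2 fold change ran from -0.04 to 0.21 over the mice left out and from 0.04 to 0.15 over the other alternatives. The log2 ratio of the summed level was 0.016 as percent of counts and up to 0.111 on the other scales.

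Rpl12 and Rpl10a lost their call wherever all copies were summed, and Rpl10a (0.21) but not Rpl12 when only pseudogenes named after a gene were. Rps12 turned to 0.32 when copies were summed by sequence or by name, to 0.32 with the replicate block as well, and to 0.31 with DESeq2, 0.31 with RLE factors, 0.24 with upper quartile factors and 0.23 with library totals only on summed copies. Over the mice left out, Rps12 ran from -4.71 to -1.55 on the named gene and from 0.16 to 0.43 with copies summed. Signs of values near 0 also turned. Rplp1 became -0.03 with library totals only, -0.04 with limma, -0.01 with upper quartile factors, -0.01 without the most abundant genes, and -0.09 to 0.16 over the mice left out. Rpl31 became -0.01 with DESeq2, -0.01 with RLE factors, -0.05 with library totals only, -0.06 with limma, -0.02 with no filter, -0.07 with upper quartile factors, -0.04 without the most abundant genes, and -0.11 to 0.17 over the mice left out. Rpl13a became 0.02 with at least 10 counts in every mouse and 0 with copies summed, and -0.16 to 0.08 over the mice left out. Rps6 became -0.02 with library totals only and -0.10 to 0.35 over the mice left out. Beyond the summing of copies, the cause was not tested.

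Under the replicate block 4 genes were called as higher, Rpl5 being added. Same-numbered mice deviated together with correlations of 0.356, 0.132, 0.173, 0.017 and -0.31, so the mice share only a number and no pairing was assumed. Depth limits the genes with few counts, above all Rpl3l, Rpl39l and Rpl10l.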

Other observations

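Some copies of ribosomal protein genes carried counts in few mice. Gm12918, a pseudogene 100% identical to Rpl13 over 636 bases, had 19, 0, 0, 0 and 0 counts in saline mice and 341, 20, 232, 0 and 897 in CD95-Ab mice, with a log2 fold change of 6.34 (edgeR FDR = 0.00336), while Rpl13 itself had a log2 fold change of 0.20 (edgeR FDR = 0.378). Rps16-ps2, identical to Rps16 over 441 bases, had 0, 18, 0, 0 and 22 counts after saline and 0, 423, 0, 0 and 1923 after CD95-Ab. Gm2000, annotated as protein-coding and 99.55% identical to Rpl35 over 445 bases, was called as higher (log2 fold change 0.60, edgeR FDR = 0.0262), against 0.11 for Rpl35 (edgeR FDR = 0.717). The 2 differ at only 2 of these bases, so most reads cannot be assigned to either. The share of the Rpl35 family on the named gene was 82.0% to 88.1% in saline mice and 70.9% to 84.2% in CD95-Ab mice, with overlap. Gene and copies together, the Rpl13 family (edgeR FDR = 0.182) and the Rpl35 family (edgeR FDR = 0.487) were not called.

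Among genes with a start window, the 12 tested with a TOP tract at the annotated start had a median log2 fold change of 0.15 with copies summed, and the 45 without had 0.13. This was not tested.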
